A study of Homo sapiens with 12 samples.

Results

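The genes described here are 79 named human genes whose transcripts were at least 2-fold higher after a CDK9 compound than in vehicle, in MOLT4 cells, an established T-cell acute lymphoblastic leukemia line. They were chosen from the measured values, FPKM (fragments scaled by transcript length and by library size) that the authors had scaled further. The mean of log2(FPKM + 1) over 3 libraries had to exceed the DMSO mean by 1 or more with SNS-032 or with THAL-SNS-032. The mean over all 12 libraries had to be 1 FPKM or more. Of 23619 genes in the table, 11381 reached that mean. The thresholds were met by 222 genes, and 143 of these were left out by name, among them histone, small RNA and unnamed loci, names with a hyphen and 16 single genes. The difference passed 1 with SNS-032 alone for 33 genes, with THAL-SNS-032 alone for 23 and with both for 23.

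RNA was measured by poly(A)-selected, stranded sequencing in 4 groups of 3 libraries. All groups were cells of this line held for 6 h in one condition: 0.1% DMSO, the vehicle, or 1 of 3 compounds at 250 nM. SNS-032 inhibits several cyclin-dependent kinases, THAL-SNS-032 joins SNS-032 to a thalidomide-type ligand of the ubiquitin ligase receptor cereblon, and NVP-2 inhibits CDK9. The labels describe 1 cell line with no genetic change, and separate cultures are not mentioned, so the p-values cover the spread among these libraries alone.

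CDK9 is the kinase of P-TEFb, which phosphorylates the paused RNA polymerase II and its pausing factors and lets transcription enter productive elongation. Loss of CDK9 activity therefore lowers new messenger RNA from most genes, and short-lived transcripts drop first. Genes with higher transcript levels are then the minority.

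Facts of the whole series bear on every value. On the log2(FPKM + 1) scale the median level of the tested genes lay between -1.87 and -2.61 from the DMSO mean in the SNS-032 libraries, between -2.14 and -2.32 with THAL-SNS-032 and between -2.87 and -3.05 with NVP-2. The ERCC spike-in RNAs, which entered at lysis, stayed between -0.0271 and 0.0383. The authors had already scaled the values, and how the spike-ins entered that scale is not given. Their near-equal levels are therefore no independent check of the lower medians. SNS-032 replicate 1 stood apart from the other two SNS-032 libraries, at -2.61 against -1.87 and -2.03, and it was the lowest of the 3 for 76 of the 79 genes. Without it the same rule returned 83 genes, 76 of them shared. All 17 T-lineage markers, from CD3D to TAL1, had DMSO means of 1 FPKM or more. Of the myeloid markers none of 6 did, and of the B cell, erythroid, stromal, epithelial and endothelial lists 2 of 6 (CD79A and CD79B), 0 of 5, 0 of 6, 1 of 6 (KRT8) and 1 of 5 (PECAM1). The table used here gives FPKM without counts, which leaves the depth unknown, and fewer cells and less RNA per cell cannot be told apart in bulk samples.

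Promoters of 4 genes with large differences are shown because these genes were higher with both SNS-032 and THAL-SNS-032. Each is the 250 bases before the RefSeq start (build GRCh38.p14), 5′ to 3′ on the strand of the gene. GCM1 lies at chr6:53148842-53149091 on the minus strand, TEX29 at chr13:111315935-111316184 on the plus strand, LINC00641 at chr14:21206901-21207150 on the minus strand and ACRC at chrX:71578187-71578436 on the plus strand. H2AFB1, at chrX:154884722-154884971 on the plus strand, is shown for its near-identical copies. Capitals mark matches, on either strand, to 5 short motifs. The TATA box was searched as TATAAA and the CCAAT box as the letters CCAAT. The GC box was searched as GGGCGG. The E-box was searched as CACGTG and the AP-1 site as the letters TGANTCA, where N is any base.
GCM1: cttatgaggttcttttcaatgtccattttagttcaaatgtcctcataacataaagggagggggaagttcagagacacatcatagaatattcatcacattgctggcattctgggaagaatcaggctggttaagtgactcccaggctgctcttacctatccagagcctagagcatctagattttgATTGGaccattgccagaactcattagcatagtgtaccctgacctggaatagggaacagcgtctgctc
TEX29: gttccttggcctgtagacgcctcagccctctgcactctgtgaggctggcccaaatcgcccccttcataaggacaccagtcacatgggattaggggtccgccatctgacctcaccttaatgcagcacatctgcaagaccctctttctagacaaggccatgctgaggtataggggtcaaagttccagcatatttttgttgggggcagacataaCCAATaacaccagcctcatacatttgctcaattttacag
LINC00641: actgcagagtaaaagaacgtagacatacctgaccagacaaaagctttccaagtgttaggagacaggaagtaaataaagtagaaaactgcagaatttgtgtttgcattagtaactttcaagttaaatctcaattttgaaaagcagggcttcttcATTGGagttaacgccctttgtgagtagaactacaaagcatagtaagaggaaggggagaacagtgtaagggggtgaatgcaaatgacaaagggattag
ACRC: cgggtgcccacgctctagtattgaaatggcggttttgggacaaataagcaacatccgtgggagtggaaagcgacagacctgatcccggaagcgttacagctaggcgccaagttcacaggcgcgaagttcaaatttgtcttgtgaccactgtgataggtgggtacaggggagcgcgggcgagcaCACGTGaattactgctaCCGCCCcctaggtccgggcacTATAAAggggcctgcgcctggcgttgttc
H2AFB1: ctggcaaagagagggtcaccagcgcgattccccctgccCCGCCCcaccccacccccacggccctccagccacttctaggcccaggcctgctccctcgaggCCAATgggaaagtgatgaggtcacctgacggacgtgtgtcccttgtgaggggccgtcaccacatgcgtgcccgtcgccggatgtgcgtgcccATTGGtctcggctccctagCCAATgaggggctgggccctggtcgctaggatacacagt

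In windows that run 250 bases before to 50 bases after the start, the GC box stood in 47.9% of the genes described here and in 70.6% of 8786 tested genes. The CCAAT box stood in 35.4% and 38.1%, the E-box in 10.4% and 10.8%, the TATA box in 8.33% and 5.16% and the AP-1 site in 4.17% and 3.91%. The median GC content of these windows was 60.0% against 65.0%, with 11 against 26 CpG dinucleotides. Only 48 of the 79 genes had a window in the table, so the comparison of motifs and base composition is void for the set as a whole.

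With SNS-032, 56 of the 79 genes passed the difference of 1, which 1.56% of all tested genes did, and 46 passed with THAL-SNS-032, against 1.05% of all tested genes. These shares follow from the choice of the genes and nothing is read from them. The difference from DMSO ran from -0.56 to 2.49 with SNS-032 (median 1.33) and from -0.67 to 3.67 with THAL-SNS-032 (median 1.03). All 3 SNS-032 libraries lay above all 3 DMSO libraries for 63 of the 79 genes (1.16% of all tested genes) and all 3 THAL-SNS-032 libraries for 69 (1.32%). DMSO means ran from 0.166 to 23.7 FPKM with a median of 0.763, and 50 of the 79 were under 1 FPKM in DMSO, so they reached the mean of 1 FPKM only through treated libraries. The scale of log2(FPKM + 1) understates the fold of such genes.

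**Figure D1:**
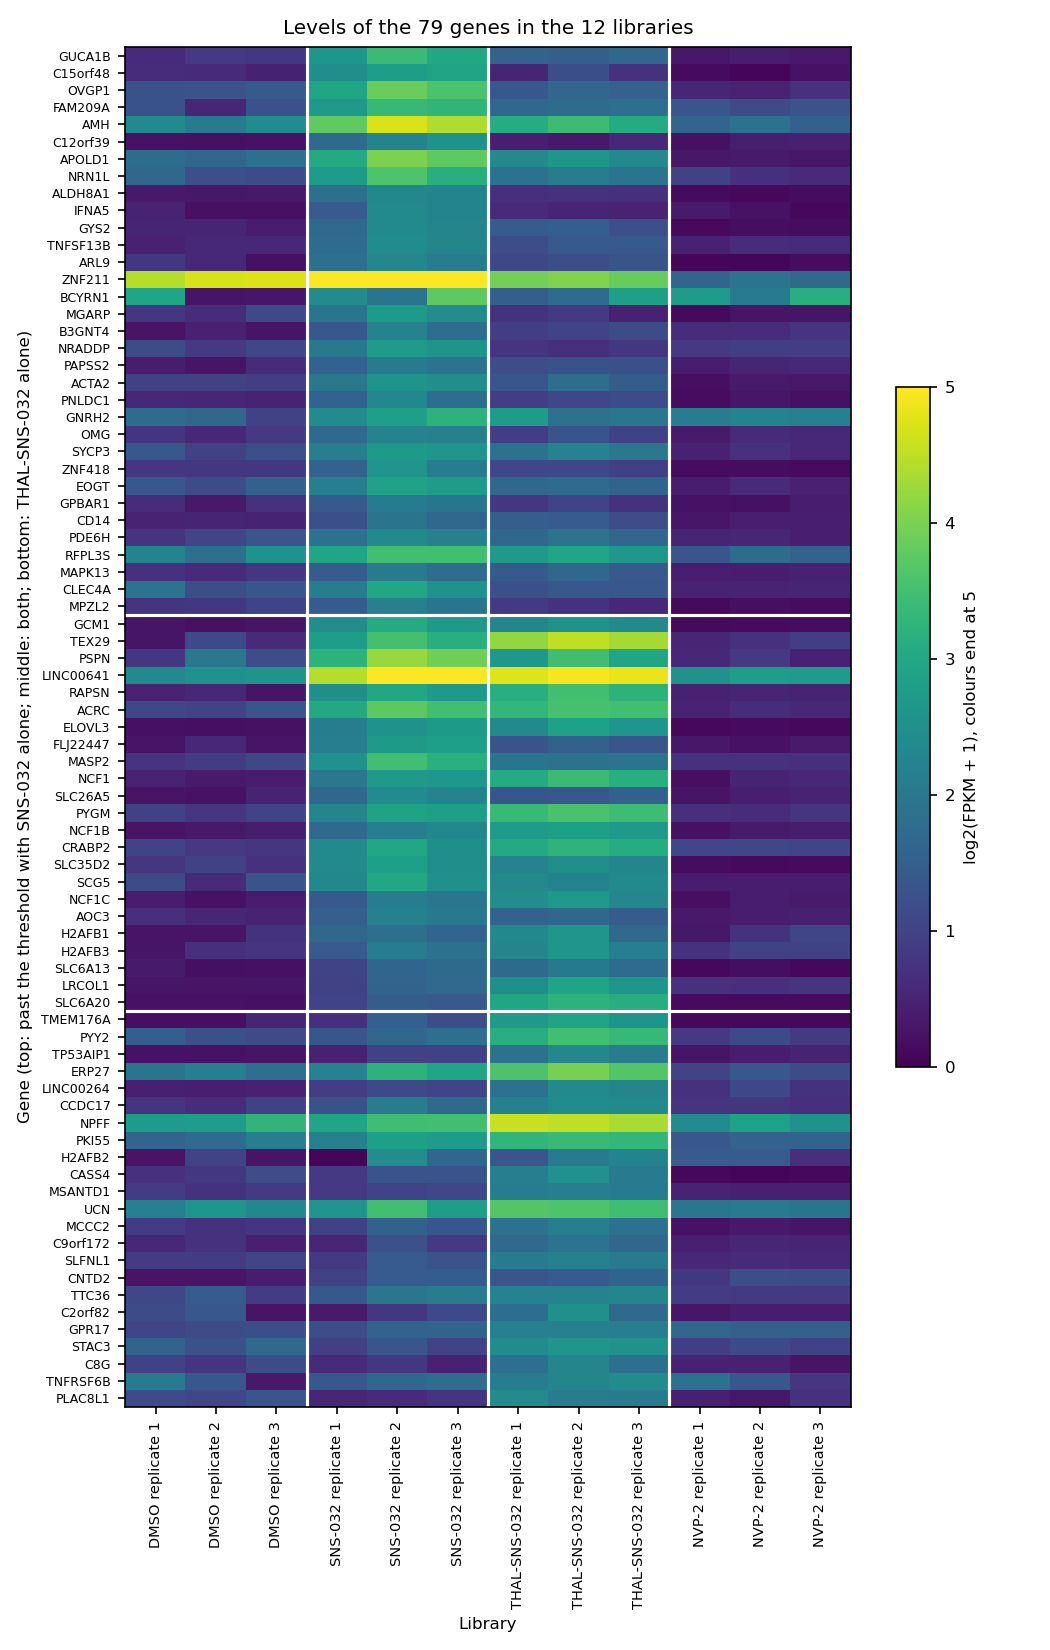
Level of each of the 79 genes (rows) in each of the 12 libraries (columns) as log2(FPKM + 1), with colours that end at 5. White lines separate the 4 treatments and the genes past the threshold with SNS-032 alone (33), both (23) and THAL-SNS-032 alone (23). NVP-2 columns are dark for most genes, and SNS-032 replicate 1 is darker than the other SNS-032 columns.

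Among transcription factors, GCM1, which directs the fusion of placental trophoblast cells, had the largest SNS-032 difference of all 79 genes. It measured 0.216, 0.164 and 0.221 FPKM in DMSO, against 4.54, 7.47 and 5.56 with SNS-032, 3.83, 4.87 and 4.18 with THAL-SNS-032, and 0.089, 0.101 and 0.115 with NVP-2. The libraries of both SNS-032 compounds lay far above DMSO without overlap. Those of NVP-2 lay below it, near the value of 0.0910 to 0.104 FPKM that 4199 gene names share, so little is read from their position. The differences were 2.49 and 2.14 for SNS-032 and THAL-SNS-032, or 29.2-fold and 21.4-fold in mean FPKM.

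ZNF211, a zinc finger protein of a gene cluster on chromosome 19, had the highest DMSO level of the set and a different order of the treatments. Its levels were 20.6, 24.8 and 25.7 FPKM in DMSO, against 49.5, 83.8 and 81.8 with SNS-032, 14.5, 15.6 and 13.3 with THAL-SNS-032 and 2.1, 2.76 and 2.32 with NVP-2. No library of one treatment reached the range of another. The differences from DMSO were 1.52, -0.67 and -2.86, so that ZNF211 had both the lowest THAL-SNS-032 and the lowest NVP-2 value of the 79. ZNF418, the third transcription factor, had differences of 1.28 with SNS-032 and 0.22 with THAL-SNS-032.

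The germ cell and reproductive tract genes were 8. TEX29, a testis-expressed membrane protein gene, had the largest THAL-SNS-032 difference of the set. It stood at 0.218, 1.19 and 0.502 FPKM in DMSO, against 5.9, 10.5 and 7.76 with SNS-032, 17.2, 21.8 and 18.9 with THAL-SNS-032, and 0.442, 0.632 and 0.898 with NVP-2. The NVP-2 libraries lay within the DMSO range, and the THAL-SNS-032 libraries were the highest. The differences were 2.48 and 3.67 for the 2 SNS-032 compounds.

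ACRC (also GCNA), a nuclear protein of germ cells, was at 1.13, 1.05 and 1.5 FPKM in DMSO, against 7.18, 12.4 and 10.1 with SNS-032 and 8.88, 10.6 and 10.2 with THAL-SNS-032. Both sets of libraries were clear of DMSO, with differences of 2.27 and 2.29. OVGP1, the oviduct glycoprotein that coats the egg, was at 1.35, 1.43 and 1.66 FPKM in DMSO, against 6.81, 13.5 and 10.9 with SNS-032 and 1.58, 2.14 and 1.99 with THAL-SNS-032. OVGP1 was thus high with SNS-032 (difference 2.16), and its THAL-SNS-032 libraries overlapped DMSO (0.22). SYCP3, a synaptonemal complex protein, and PNLDC1, which trims piRNAs, also passed with SNS-032 alone, at 1.32 and 1.37. H2AFB1, H2AFB2 and H2AFB3 encode the short histone variant of testis and differed by 1.80, 1.37 and 1.78 with THAL-SNS-032. With SNS-032 they differed by 1.29, 0.89 and 1.235, so H2AFB1 and H2AFB3 passed with both and H2AFB2 with THAL-SNS-032 alone. The longest transcripts of the H2AFB genes are 99.7% to 100% identical over the aligned bases. The authors' assignment of reads among them is therefore uncertain and they are not independent examples.

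The 9 secreted hormones, growth factors and their processing factors were led by PSPN, persephin, a neurotrophic factor of the GDNF family. PSPN measured 0.725, 3.03 and 1.28 FPKM in DMSO, against 8.41, 17.9 and 14.1 with SNS-032, 5.35, 10.1 and 6.77 with THAL-SNS-032 and 0.483, 0.769 and 0.375 with NVP-2. Its DMSO libraries were spread widely, and the libraries of both SNS-032 compounds stayed above them (2.47 and 1.71). AMH, the anti-Müllerian hormone, was at 4.25, 3.09 and 4.34 FPKM in DMSO, against 12.8, 25.3 and 20.2 with SNS-032 and 7.56, 9.75 and 7.48 with THAL-SNS-032. Its differences were 2.02 and 0.92, so that only the first passed the threshold.

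NPFF, UCN and PYY2 had the opposite order. NPFF, neuropeptide FF, was at 5.78, 5.96 and 8.68 FPKM in DMSO, against 6.79, 10.1 and 10.3 with SNS-032 and 22.8, 21.9 and 19.6 with THAL-SNS-032. UCN, urocortin of the corticotropin-releasing family, was at 3.53, 5.26 and 4.02 in DMSO, against 5.12, 10.2 and 5.96 with SNS-032 and 11.7, 11.4 and 10.1 with THAL-SNS-032. For both genes the SNS-032 libraries overlapped DMSO and the THAL-SNS-032 libraries did not. PYY2, a pseudogene related to peptide YY, had differences of 0.33 with SNS-032 and 2.05 with THAL-SNS-032. GNRH2, a gonadotropin-releasing hormone, passed with SNS-032 alone (1.36). C12orf39 (spexin) and NRN1L (neuritin 1 like) also passed with SNS-032 alone, at 1.93 and 1.84, and SCG5, a chaperone of a prohormone convertase, with both, at 1.59 and 1.30.

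NCF1 encodes the p47 organizer of the phagocyte NADPH oxidase, and NCF1B and NCF1C are its pseudogene copies. NCF1 stood at 0.42, 0.29 and 0.319 FPKM in DMSO, against 2.99, 5.51 and 5.32 with SNS-032, 7.43, 9.62 and 7.9 with THAL-SNS-032 and 0.156, 0.391 and 0.493 with NVP-2. The THAL-SNS-032 libraries were above the SNS-032 libraries, which were above DMSO, and the NVP-2 libraries covered the DMSO range. The differences were 2.03 and 2.79 for NCF1, 1.74 and 2.43 for NCF1B, and 2.16 with THAL-SNS-032 for NCF1C, whose SNS-032 libraries were at 1.67, 3.35 and 2.88 FPKM. NCF1 is 99.7% identical to NCF1B and 99.4% to NCF1C over the aligned bases, so how reads were divided among the 3 is uncertain and they count as 1 example.

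Of 7 immune ligands, receptors and complement genes, MASP2, the protease of the lectin pathway of complement, had the largest difference. It was at 0.696, 0.831 and 1.1 FPKM in DMSO, against 4.75, 10.3 and 8 with SNS-032 and 2.86, 2.67 and 2.77 with THAL-SNS-032, which gave differences of 2.16 and 1.01. CD14, the lipopolysaccharide co-receptor of monocytes, was at 0.395, 0.438 and 0.405 FPKM in DMSO, against 1.34, 2.77 and 2.14 with SNS-032 and 1.84, 1.76 and 1.27 with THAL-SNS-032. Both treatments were clear of DMSO, and no library exceeded 2.77 FPKM. The summed level of the 6 myeloid markers was 1.05 to 1.21 FPKM in DMSO, against 2.08 to 3.8 with SNS-032, 4.39 to 5.55 with THAL-SNS-032 and 0.724 to 0.804 with NVP-2. That sum includes CD14 itself, at 0.395 to 0.438 FPKM in DMSO, 1.34 to 2.77 with SNS-032 and 1.27 to 1.84 with THAL-SNS-032. It is therefore not separate from the CD14 values, and its relation to the NCF1 values was not tested. CLEC4A, a C-type lectin of dendritic cells, passed with SNS-032 alone (1.06, against -0.17 with THAL-SNS-032). IFNA5, an interferon alpha, and TNFSF13B, the B cell factor BAFF, passed with SNS-032 alone, at 1.70 and 1.61. TNFRSF6B, decoy receptor 3, and C8G, a chain of complement component 8, passed with THAL-SNS-032 alone, at 1.00 and 1.02. The DMSO libraries of TNFRSF6B were spread over 3.21, 1.6 and 0.26 FPKM, and its difference was 0.54 without DMSO replicate 3.

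Among 7 other receptors and surface proteins, RAPSN, rapsyn, which clusters acetylcholine receptors at the nerve-muscle synapse, passed with both compounds (2.28 and 2.84). It was at 0.416, 0.486 and 0.218 FPKM in DMSO, against 4.63, 6.99 and 5.48 with SNS-032 and 7.96, 10.3 and 8.36 with THAL-SNS-032. TMEM176A, a membrane protein, was at 0.158, 0.152 and 0.435 FPKM in DMSO, against 0.599, 1.89 and 1.27 with SNS-032 and 5.41, 6.55 and 5.04 with THAL-SNS-032. TMEM176A thus stood highest in the THAL-SNS-032 libraries, 2.42 above DMSO against 0.82 for SNS-032. GPR17, an orphan receptor of oligodendrocyte precursors, passed with THAL-SNS-032 alone (1.03). NRADDP (a pseudogene), OMG (oligodendrocyte myelin glycoprotein), GPBAR1 (the bile acid receptor) and MPZL2 (an adhesion protein) passed with SNS-032 alone, at 1.44, 1.32, 1.24 and 1.00.

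The 6 transporters and photoreceptor proteins all passed with SNS-032. SLC6A20, a transporter of proline, was at 0.19, 0.182 and 0.173 FPKM in DMSO, against 1.01, 1.78 and 1.62 with SNS-032, 6.72, 8.45 and 7.63 with THAL-SNS-032 and 0.102, 0.101 and 0.102 with NVP-2. The 4 groups did not overlap, and the differences were 1.05 and 2.86 for the 2 SNS-032 compounds. The NVP-2 values of SLC6A20 lay at the value, 0.0910 to 0.104 FPKM in different libraries, that 4199 gene names share. They are therefore not read as a separate level. GUCA1B, a calcium sensor of photoreceptors, was at 0.527, 0.766 and 0.753 FPKM in DMSO, against 5.15, 9.68 and 6.96 with SNS-032 and 1.98, 1.86 and 2.13 with THAL-SNS-032. It had the reverse order, with differences of 2.26 and 0.83. SLC26A5 (prestin of the inner ear), SLC35D2 (a nucleotide sugar carrier) and SLC6A13 (a GABA transporter) passed with both, and PDE6H, a cone phosphodiesterase subunit, with SNS-032 alone.

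Of 11 metabolic enzymes and carriers, 9 passed with SNS-032 and 6 with THAL-SNS-032. ELOVL3, a fatty acid elongase, had the lowest DMSO level of the set at 0.167, 0.16 and 0.172 FPKM. It reached 3.33, 4.91 and 5.64 with SNS-032 and 4.2, 6.26 and 5.08 with THAL-SNS-032, ranges that overlapped each other and not DMSO (2.25 and 2.39). PYGM, the glycogen phosphorylase of muscle, was at 0.948, 0.731 and 1.01 FPKM in DMSO, against 3.82, 6.43 and 6.16 with SNS-032 and 9.44, 10.9 and 9.88 with THAL-SNS-032 (1.75 and 2.54). CRABP2, which carries retinoic acid to its nuclear receptors, was at 1.04, 0.776 and 0.735 in DMSO, against 4.22, 6.91 and 4.58 with SNS-032 and 7.28, 8.5 and 7.6 with THAL-SNS-032 (1.73 and 2.25). PYGM and CRABP2 had THAL-SNS-032 libraries above every SNS-032 library. ERP27, a disulfide isomerase relative of the endoplasmic reticulum, and MCCC2, a leucine-degrading carboxylase subunit, passed with THAL-SNS-032 alone, at 1.77 and 1.19. EOGT, an O-GlcNAc transferase for secreted proteins, ALDH8A1, GYS2, B3GNT4 and PAPSS2 passed with SNS-032 alone, between 1.25 and 1.79, and AOC3 with both, at 1.33 and 1.01.

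The 8 muscle, adhesion and signalling genes split 5 to 3 between the compounds, and none passed with both. APOLD1, a protein of endothelial cells, was at 2.42, 2.15 and 2.56 FPKM in DMSO, against 7.31, 15.1 and 12.6 with SNS-032 and 4.12, 5.3 and 4.11 with THAL-SNS-032 (1.86 and 0.70). CASS4, a scaffold of focal adhesions, was at 0.632, 0.76 and 1.28 in DMSO, against 0.778, 1.43 and 1.45 with SNS-032 and 3.42, 4.79 and 3.2 with THAL-SNS-032 (0.23 and 1.34). ARL9, MGARP, ACTA2 (smooth muscle actin) and MAPK13 (a p38 kinase) passed with SNS-032, between 1.07 and 1.55, and TP53AIP1 (a p53 target in apoptosis) and STAC3 (a protein of muscle calcium release) with THAL-SNS-032, at 1.84 and 1.02.

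The set held 6 non-coding RNAs. LINC00641 was at 4.25, 4.9 and 5.04 FPKM in DMSO, against 20.7, 31.9 and 32.3 with SNS-032, 26.1, 29.6 and 27.9 with THAL-SNS-032, and 4.85, 6.01 and 5.78 with NVP-2. It was the most abundant of the 79 with THAL-SNS-032, its differences were 2.33 and 2.33, and its NVP-2 libraries overlapped DMSO. FLJ22447 passed with both (2.19 and 1.03), RFPL3S with SNS-032 (1.09), and PKI55 and LINC00264 with THAL-SNS-032 (1.48 and 1.74). BCYRN1, the short RNA also called BC200, which RNA polymerase III makes, passed with SNS-032 at 1.52. Its DMSO libraries were at 6.77, 0.204 and 0.235 FPKM and its SNS-032 libraries at 4.29, 2.79 and 12.5, so that 1 DMSO library lay within the SNS-032 range. The SNS-032 difference was 2.41 without that DMSO library, replicate 1, and 0.99 without SNS-032 replicate 3.

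The other 11 genes have roles that are less well known. C15orf48, a small mitochondrial protein, was at 0.556, 0.514 and 0.368 FPKM in DMSO, against 4.52, 5.88 and 6.59 with SNS-032 and 0.439, 1.31 and 0.628 with THAL-SNS-032. Its SNS-032 libraries stood clear (2.16) and its THAL-SNS-032 libraries overlapped DMSO (0.25). FAM209A passed with SNS-032 (2.08), LRCOL1 with both (1.15 and 2.41), and CNTD2, a cyclin-like gene, with THAL-SNS-032 (1.15, against 0.99 with SNS-032). CCDC17, TTC36, C9orf172, SLFNL1, MSANTD1, C2orf82 and PLAC8L1 passed with THAL-SNS-032 alone, between 1.00 and 1.54. PLAC8L1 had the lowest SNS-032 difference of the set, -0.56.

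**Figure D2:**
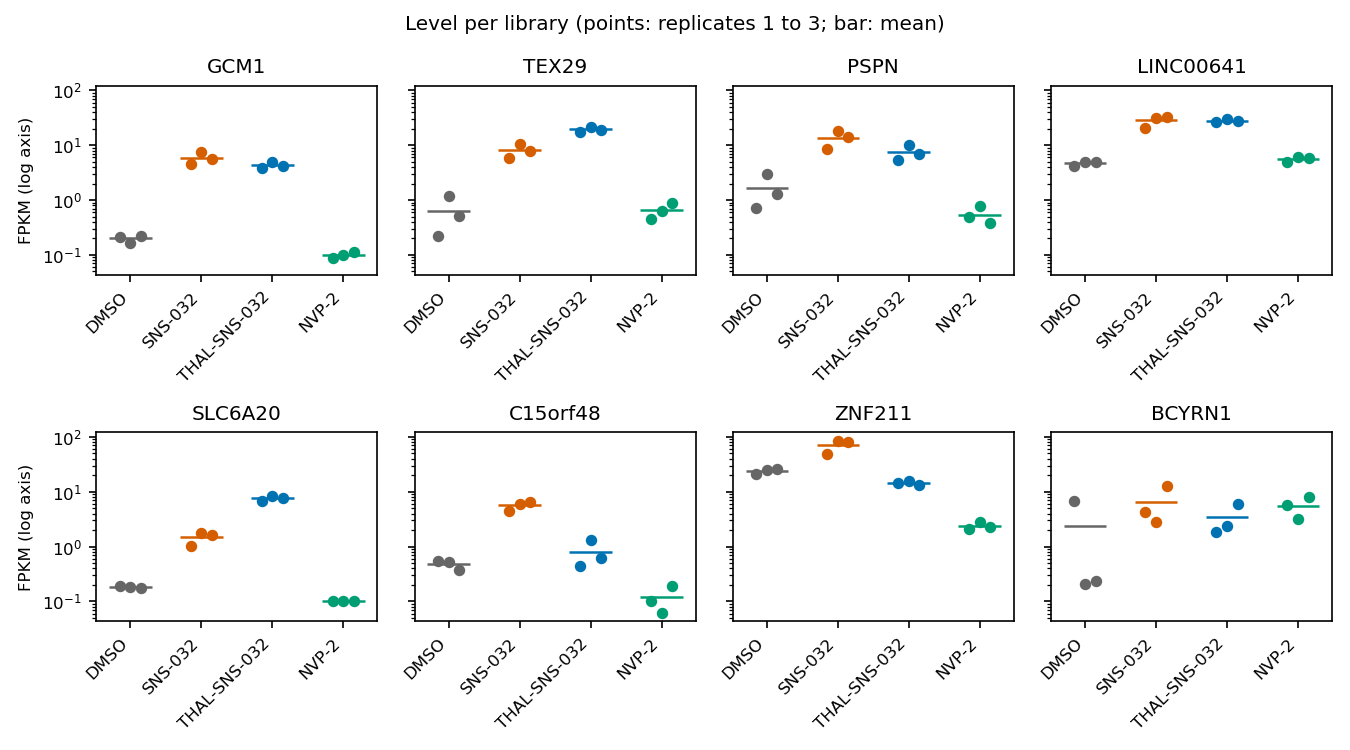
FPKM on a log axis of 8 genes in each library (points, replicates 1 to 3 from left to right) with the group mean (bar), for the vehicle and the 3 compounds. GCM1 and SLC6A20 are high with both SNS-032 compounds, C15orf48 and ZNF211 with SNS-032, and the DMSO points of BCYRN1 lie far apart.

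The differences were continuous across the threshold. Just inside were MPZL2 (1.00 with SNS-032), PLAC8L1 and TNFRSF6B (both 1.00 with THAL-SNS-032). Just outside were SNAI1, a repressor of E-cadherin (0.99 with SNS-032), SERPINC1, antithrombin (0.98), and TMEM183A (0.95). The lowest means over 12 libraries inside the limit were GPBAR1, IFNA5 and C9orf172 at 1.01, 1.02 and 1.05 FPKM, and the highest outside it were MPC1L, FKBP9 and IL13 at 0.965, 0.955 and 0.929 FPKM.

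Set side by side, the THAL-SNS-032 difference exceeded the SNS-032 difference for 38 of the 79 genes. It did for 15 of the 23 genes past the threshold with both and, by the way they were sorted, for 0 of the 33 and all 23 of the others. Because both differences chose the genes and share the DMSO libraries, they were not tested against each other. The SNS-032 difference was above 0 for 75 genes and the THAL-SNS-032 difference for 74.

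**Figure D3:**
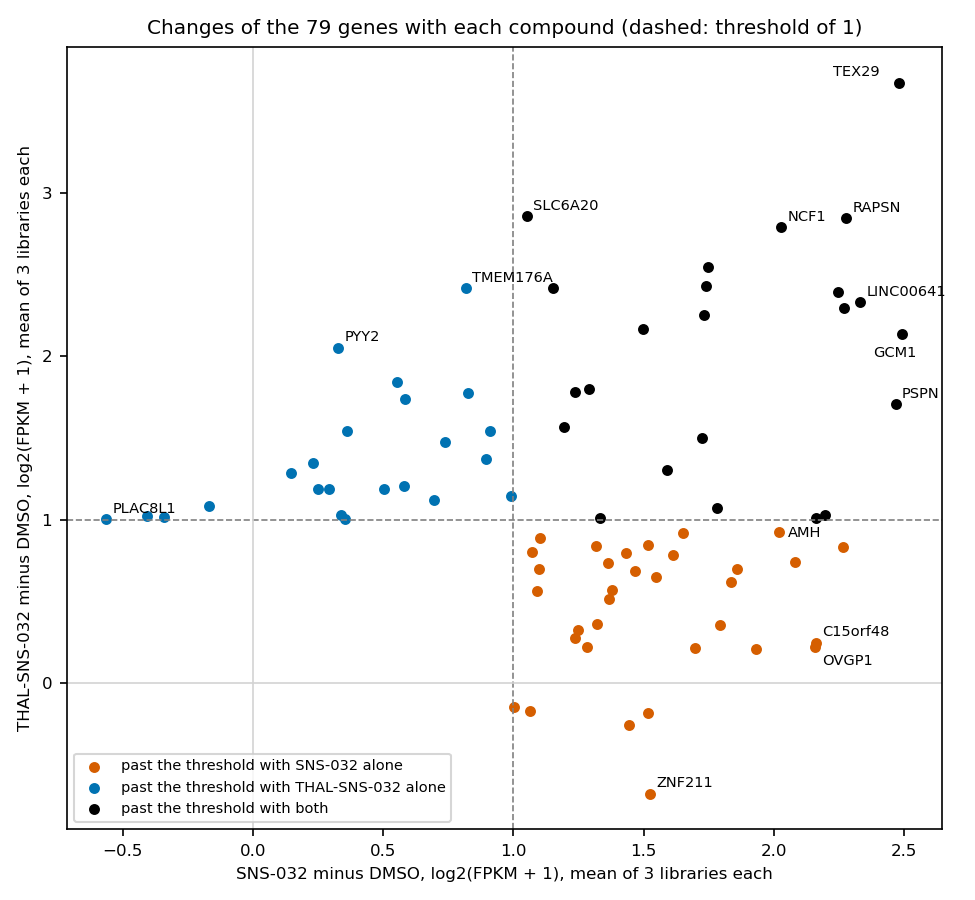
Difference from DMSO in mean log2(FPKM + 1) with SNS-032 (x axis) and THAL-SNS-032 (y axis) for the 79 genes, coloured by which threshold of 1 (dashed) they passed. The lower left corner is empty because the rule excludes it, TEX29 is at the top with 2.48 and 3.67, and ZNF211 is lowest with 1.52 and -0.67.

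NVP-2 was not used for the rise in the rule, although its libraries entered the mean over 12 and it shares the DMSO libraries. The comparison asked whether these genes also changed with a different CDK9 inhibitor at the same dose and time. With NVP-2, 6 of the 79 genes were called higher than in DMSO (0.448% of all tested genes were), 30 were called lower (97.1% of all tested genes were) and 43 were not called (limma, Benjamini-Hochberg adjusted p under 0.05). The median difference was -0.23, against -2.54 over all tested genes. These directions are on the deposited scale: with each library centred on its median, 78 of the 79 were called higher and 0 lower, and of all tested genes 6789 higher and 3198 lower. A low gene has little room to fall on the log2(FPKM + 1) scale, and 8 of the genes had an NVP-2 mean no higher than the value, 0.0910 to 0.104 FPKM in different libraries, that 4199 gene names share in each library. By DMSO level, 13 of the 50 genes under 1 FPKM were called lower and 3 higher. Of 127 other tested genes under 1 FPKM, 8 were called lower and 27 higher. Those 127 reached the mean of 1 FPKM only through treated libraries, those of NVP-2 included. Genes that the rule left out by name are among them. Between 1 and 5 FPKM, 16 of 27 were called lower, or 59.3%, against 94.2% of 1167 other tested genes, with medians of -0.57 and -1.42. Levels within this range were not matched, and the DMSO values helped choose the 79 genes, so nothing is read from the smaller fall.

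BCYRN1 had the highest NVP-2 difference, 1.47 (SE 0.63, limma, adjusted p = 0.0344), and was the only one of the 79 to reach 1. Its NVP-2 libraries, at 5.68, 3.15 and 7.88 FPKM, overlapped the DMSO library at 6.77. The call was lost without DMSO replicate 2 or 3, at 1.02 and 1.03, and without NVP-2 replicate 1 or 3 or SNS-032 replicate 1, at 1.42, 1.22 and 1.47. It was also lost with a pseudocount of 5 (0.60), and at an unchanged 1.47 with no filter, with limma's trended and robust fit and with the NVP-2 and DMSO libraries fitted alone. Without DMSO replicate 1, the high DMSO library, the difference was 2.36. CNTD2 rose by 0.74 (SE 0.15, limma, adjusted p = 0.000213), from 0.207, 0.197 and 0.297 FPKM to 0.742, 1.26 and 1.21, with no overlap. GNRH2 rose by 0.73 (SE 0.26, limma, adjusted p = 0.0135), with 2.35, 2.13 and 0.966 FPKM in DMSO and 3.32, 3.79 and 3.61 with NVP-2. Its call was lost without DMSO replicate 3, the lowest, at 0.50.

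LRCOL1 rose by 0.45 (SE 0.17, limma, adjusted p = 0.0197), GPR17 by 0.44 (SE 0.13, limma, adjusted p = 0.00444) and LINC00264 by 0.40 (SE 0.14, limma, adjusted p = 0.0147). The NVP-2 libraries of these 3 genes lay above all DMSO libraries. With equal ERCC medians none of the 3 was called (0.42, 0.37 and 0.36), and LRCOL1 and LINC00264 were not called without NVP-2 replicate 3 (0.42) and replicate 2 (0.29), respectively, or with a pseudocount of 5 (0.12 for each).

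On the deposited scale ZNF211 fell by 2.86 with NVP-2 (SE 0.19, limma, adjusted p = 1.01e-09) and APOLD1 by 1.41 (SE 0.20, limma, adjusted p = 4.31e-06), to 0.251, 0.293 and 0.253 FPKM. CLEC4A fell by 0.98 (SE 0.20, limma, adjusted p = 0.000288) and EOGT by 0.87 (SE 0.17, limma, adjusted p = 0.000163). CASS4 fell by 0.80 (SE 0.17, limma, adjusted p = 0.000267) and ERP27 by 0.79 (SE 0.22, limma, adjusted p = 0.00293). In each of these 6 genes all NVP-2 libraries were below all DMSO libraries, and by the rule all 6 had been above DMSO by 1 or more with SNS-032 or THAL-SNS-032. Libraries of NVP-2 lay wholly below DMSO for 44 of the 79 genes (97.8% of all tested genes) and wholly above it for 8 (0.431%).

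Of the genes with the 6 largest SNS-032 or the 6 largest THAL-SNS-032 differences, PSPN and ACRC were also lower with NVP-2, by -0.71 (SE 0.30, limma, adjusted p = 0.0345) and -0.58 (SE 0.17, limma, adjusted p = 0.00372). Further down the 15 largest of each compound, OVGP1, AMH, GUCA1B, C15orf48 and PYY2 were also called lower with NVP-2. ELOVL3, FLJ22447, MASP2, FAM209A, TMEM176A and NCF1C, from the same ranks, were not called, and LRCOL1 was called higher. The PSPN call was lost without DMSO replicate 2 (-0.37), its highest DMSO library, and without NVP-2 replicate 1 (-0.69) or 3 (-0.63), with no filter (-0.71) and with a pseudocount of 5 (-0.26). The ACRC call was also lost with a pseudocount of 5 (-0.18). GCM1 (-0.12), TEX29 (0.05), LINC00641 (0.19), RAPSN (0.03), SLC6A20 (-0.10), NCF1 (-0.003), NCF1B (-0.01), PYGM (-0.22), CRABP2 (0.18) and CD14 (-0.11) were not called by limma. The 95% intervals were -0.43 to 0.19 for GCM1, -0.42 to 0.52 for TEX29, -0.18 to 0.56 for LINC00641 and -0.29 to 0.34 for RAPSN. With a pseudocount of 0.1, which widens differences of low genes, GCM1 was called lower (-0.57, limma, adjusted p = 0.0391). PYGM was called lower without SNS-032 replicate 1, at an unchanged difference of -0.22 (limma, adjusted p = 0.019). It was also called lower with the NVP-2 and DMSO libraries fitted alone (limma, adjusted p = 0.0356). By pattern, NVP-2 was called lower for 17 of the 33 genes past the threshold with SNS-032 alone, 9 of the 23 with THAL-SNS-032 alone and 4 of the 23 with both, against 97.1% of all tested genes, and called higher for 2, 3 and 1. The DMSO levels of these groups differed: of the genes past the threshold with both, 19 of 23 were under 1 FPKM, against 19 of the 33 with SNS-032 alone and 12 of the 23 with THAL-SNS-032 alone.

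**Figure D4:**
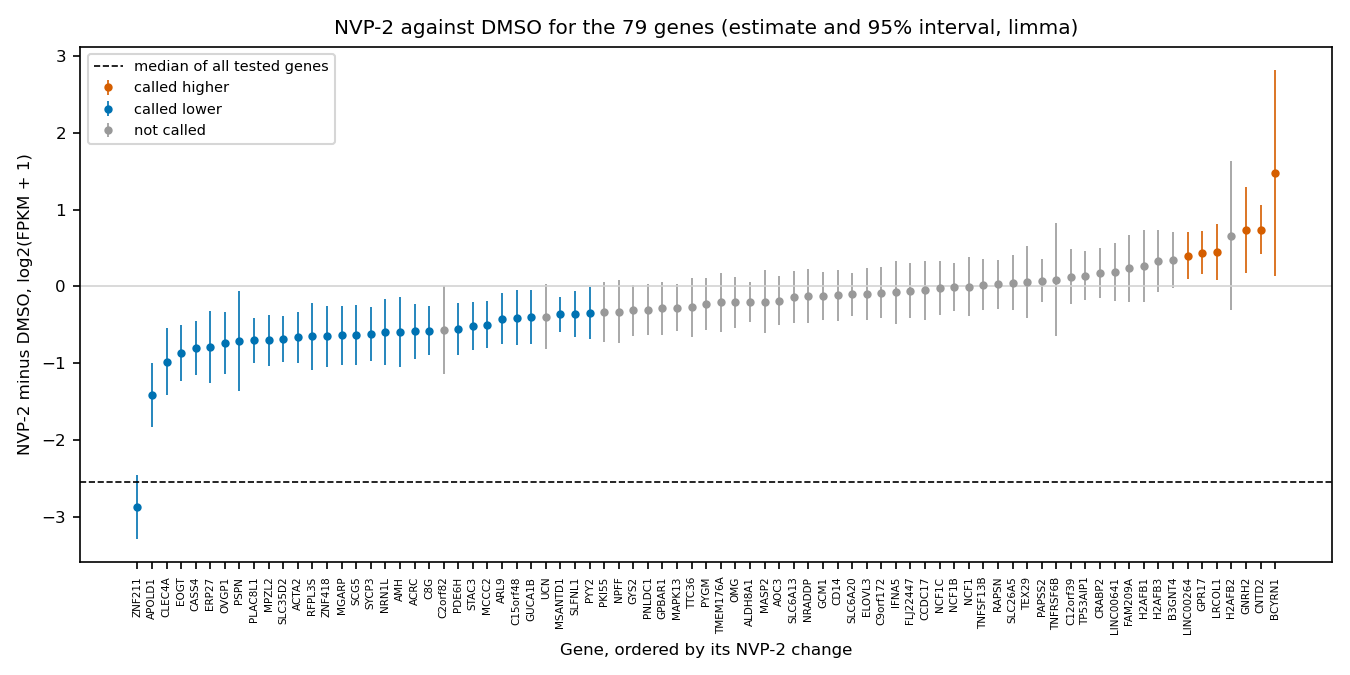
NVP-2 minus DMSO in mean log2(FPKM + 1) for each of the 79 genes, ordered by size, with the 95% interval of the limma fit (bars). The dashed line is the median of all tested genes (-2.54), only ZNF211 lies below it, and 43 of the 79 are grey, not called.

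Few of the lists of pathway genes and markers held any of the 79. CD14 stood in the myeloid markers and CRABP2 among apolipoproteins and lipid carriers, and the other lists held none. The lists hold only part of each family, and TP53AIP1, IFNA5 and the H2AFB genes are not on them. With NVP-2 none was called higher and all were called lower of the tested p53 targets (26), immediate early and AP-1 genes (13), P-TEFb and its regulators (17), heat shock genes (13) and metallothioneins and metal transport genes (10). The same held for chemokines, cytokines and their receptors (7), ID and bHLH repressors (6) and death-promoting BCL2 family genes (8). With 97.1% of all tested genes called lower, nothing is read from these counts. For apolipoproteins and lipid carriers 8 of 10 were called lower and 1 higher. For S100 and EF-hand proteins 7 of 8 were lower, for homeobox factors 6 of 7 and for replacement histones 8 of 9, with none higher. All 17 T-lineage markers were called lower, as were the 1 tested B cell marker and the 1 tested endothelial marker, and CD14, the 1 tested myeloid marker, was not called.

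Position in the genome was not used to choose the genes. All 79 were found in GENCODE 29 (GRCh38), 6 of them under a newer name. Only the nearest tested gene that ended before the start on the same strand was looked at. For 38 of the 79, or 48.1%, that gene had a DMSO mean of 5 FPKM or more and ended within 10 kb. This was so for 14.6% of 10985 tested genes and for 15.8% of 1172 other tested genes under 5 FPKM in DMSO. It held for 51.5% of the genes past the threshold with SNS-032 alone, 60.9% with THAL-SNS-032 alone and 30.4% with both. The comparison sets, here and for the gene spans below, also hold genes of the kinds that the rule left out by name. These shares are descriptions of the set with no test.

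The median gap between neighbour and gene was 3.40 kb. LINC00641 starts 2.24 kb after the end of HNRNPC, which encodes a nuclear RNA-binding protein. The HNRNPC mean was 999.9 FPKM in DMSO, 396 in the SNS-032 libraries, 484 in the THAL-SNS-032 libraries and 252 in those of NVP-2, while LINC00641 means were 4.73, 28.3, 27.8 and 5.54. AMH starts 0.630 kb after SF3A2, a splicing factor gene, whose means were 176, 68.7, 40.8 and 19.2 FPKM in the same order. NPFF follows ATF7 by 0.218 kb, PSPN follows GTF2F1 by 0.511 kb, UCN follows MPV17 by 1.05 kb, ACRC follows OGT by 2.51 kb, ERP27 follows ARHGDIB by 2.94 kb and PYGM follows SF1 by 4.31 kb. All 38 neighbours had lower means with each compound than in DMSO. Their median changes were -1.62 for SNS-032, -1.86 for THAL-SNS-032 and -2.68 for NVP-2. Of all tested genes, 97.1% were called lower with NVP-2, with a median change of -2.54, and library medians were lower with every compound. Nothing is therefore read from the lower neighbours, and their part in the genes' values was not tested.

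**Figure D5:**
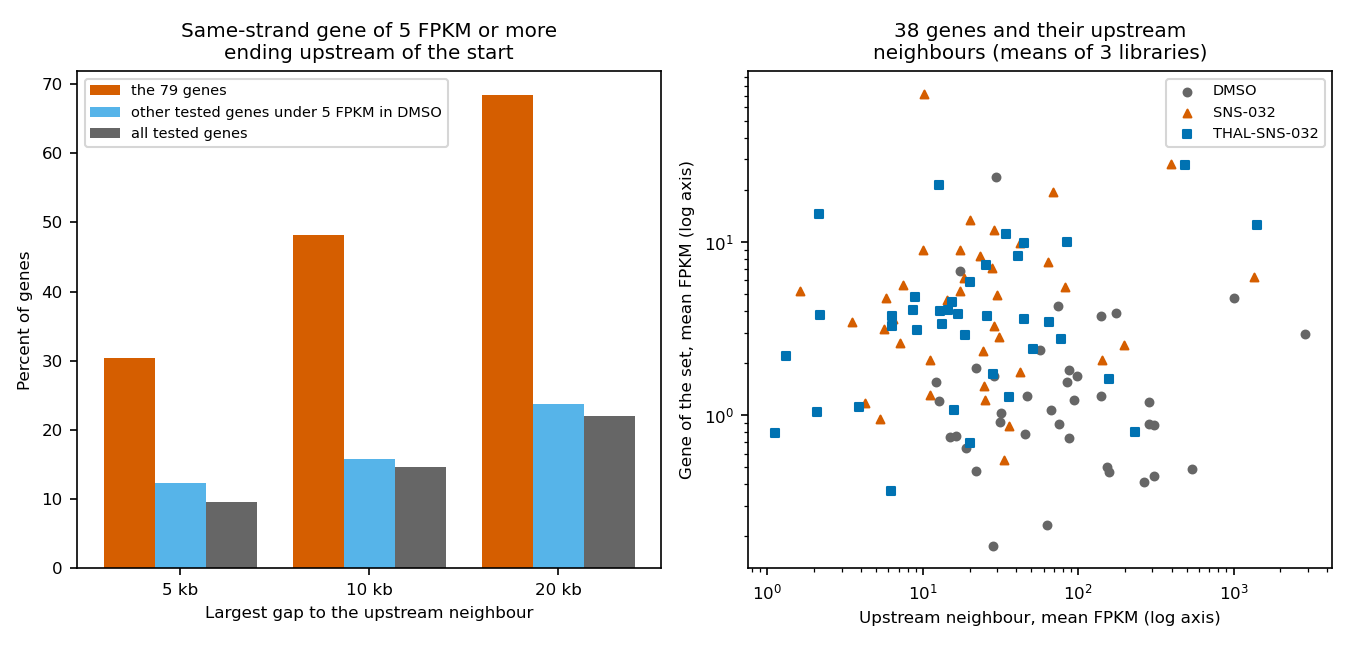
Left, percent of genes whose nearest tested same-strand gene upstream had 5 FPKM or more in DMSO and ended within 5, 10 or 20 kb. Bars are for the 79 genes, other tested genes under 5 FPKM in DMSO and all tested genes (48.1%, 15.8% and 14.6% at 10 kb). Right, mean FPKM of 38 genes against that of their upstream neighbours (log axes) in DMSO, SNS-032 and THAL-SNS-032. Treated points lie to the left of the DMSO points, and most lie higher. The higher position follows from the rule that chose the genes, and nothing is read from it.

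The genes were also compact. Their median span was 11.4 kb with a median of 6 exons in the transcript with most exons, against 29.01 kb and 9 exons for all tested genes and 22.5 kb and 7 exons for the other tested genes under 5 FPKM. Of the 79, 69 were annotated as protein coding and 7 had a single exon. A gene of 5 FPKM or more overlapped 8 of them on the same strand (10.1%, against 6.81% of all tested genes and 11.1% of the other tested genes under 5 FPKM), as DDX47 does APOLD1, and 8 on the opposite strand (10.1%, against 21.6% and 19.8%), as ALKBH7 does PSPN. Whether counting used strand is not stated in the sources used here, so the values of the genes overlapped on the opposite strand are uncertain. Strand does not separate reads of same-strand overlaps. The values of AMH, APOLD1, C2orf82, C9orf172, FAM209A, MGARP, TNFRSF6B and TTC36, which have such overlaps, are therefore uncertain too.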

How the data were processed

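Transcript levels of MOLT4 cells in 4 treatments with 3 libraries each came from 1 table of FPKM deposited by the authors. Per the labels' protocols, ERCC spike-in RNA was added at lysis and stranded libraries were prepared from poly(A) RNA. HISAT, Cufflinks 2.0.0 and build hg19 are named in the submitters' processing notes. The annotation, the strand setting of the quantification and the way the spike-ins entered the scale are not given in the sources used here. Without counts neither depth nor counting error can be given.

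Of 23713 entries, 92 ERCC entries were set aside, and for 2 repeated names the entry with the higher mean was kept. Values were used as log2(FPKM + 1), a pseudocount of 1, on the deposited scale. Genes whose mean reached 1 FPKM were fitted over the 4 groups in limma 3.58.1 (R 4.3.3, with trend), without replicate block, and NVP-2 was compared with DMSO, two-sided, with Benjamini-Hochberg adjustment over all 11381 genes and a threshold of 0.05. SNS-032 and THAL-SNS-032 against DMSO were used by the rule and are given without a test. The fit was checked on simulated data.

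The genes and the lists were chosen with earlier results of these data known. The result of 1 list is not reported here. Genes described in detail came from a rule: the 15 largest SNS-032 and the 15 largest THAL-SNS-032 differences, the 6 highest in DMSO, those called higher and the 6 lowest with NVP-2, those in a list, and the 3 on each side of the threshold. NVP-2 differences from the fit are printed for 24 of these, and for some others only whether limma called them. Other genes are named to account for the whole set. Role groups and the comparison of genomic neighbours were made after the values were seen. Gene positions are from GENCODE 29 (GRCh38), promoter windows from RefSeq (GRCh38.p14), and no hg19 coordinates were used. Alternatives changed the pseudocount, the filter, the scaling, limma's settings, the replicate block and the libraries included. Python 3.11.15 and matplotlib 3.10.9 made the figures.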

Additional observations from a re-analysis of the deposited data

How the results depend on the processing

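The rule returned between 66 and 117 genes, against 79, under a pseudocount of 0.1, no filter, equal ERCC medians and each library left out (66 to 83). It returned 24 with a pseudocount of 5, 10 with a mean of 5 FPKM or more and 2655 with libraries centred on their median. With NVP-2, the 6 of the 79 called higher were 3 with a pseudocount of 5, 0 of the 10 genes left with a mean of 5 FPKM or more, 78 with centred libraries and 3 with equal ERCC medians, and 4 to 7 with a library left out. The 30 called lower were 19, 6 and 0 under the first 3 of these settings, and 25 to 38 with a library left out. Of all tested genes, 51 were called higher, and 21 were with a mean of 5 FPKM or more, 6789 with centred libraries and 47 to 54 with a library left out. The 11050 called lower were 19550 without a filter, where more genes were tested, 3198 with centred libraries and 11027 to 11065 with a library left out.

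Centring removes the difference in median level between libraries, and it turned the sign of the NVP-2 difference of ZNF211 (0.10), APOLD1 (1.55), CLEC4A (1.98), EOGT (2.09), CASS4 (2.16), ERP27 (2.17), CD14 (2.85), GCM1 (2.84), PSPN (2.25), ACRC (2.38), SLC6A20 (2.86), NCF1 (2.96), PYGM (2.74) and NCF1B (2.95). The median difference of all tested genes was then 0.42. Other reversals concerned differences near 0 that were not called: with a library left out TEX29 ran from -0.138 to 0.283, RAPSN from -0.057 to 0.087, NCF1 from -0.081 to 0.103 and NCF1B from -0.042 to 0.045, and NCF1 was 0.001 with a pseudocount of 5. The cause of these was not tested. The BCYRN1 call was also lost with a pseudocount of 5, no filter, robust limma and the 6 libraries alone, at adjusted p between 0.0645 and 0.143 over all settings that lost it.

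The share of the set with an upstream neighbour, 48.1%, was 30.4% within 5 kb and 68.4% within 20 kb, against 9.54% and 22.0% of all tested genes. It was 40.5% for neighbours of 20 FPKM or more and 50.7% without the copies of NCF1 and H2AFB1. These limits were chosen after seeing the data.

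With the replicate number as a block, 8 of the 79 were called higher and 33 lower with NVP-2, and 54 and 11060 of all tested genes. Of 18 same-numbered pairs 1 had a correlation of deviations from the group means over 0.1, and the range was -0.151 to 0.17. A correlation over genes cannot see a shift of a whole library, so it does not decide whether the numbers pair the libraries. Replicate 1 had the lowest median of every group: -3.05 (NVP-2), -2.61 (SNS-032), -2.32 (THAL-SNS-032) and -0.0768 (DMSO) from the DMSO mean. For THAL-SNS-032 the margin was small, with replicate 3 at -2.31. Depth is unknown, so genes near 0.1 FPKM cannot be given a counting error.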
